A study of Mus musculus with 6 samples.

Results

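The genes described here are the subunits of the transcription factor NF-kB (Nfkb1, Nfkb2, Rel, Rela and Relb), the genes of 3 classical and 1 atypical inhibitor of it (Nfkbia, Nfkbib, Nfkbie and Nfkbiz) and Tnfaip3, a further brake on the pathway. They were taken as a family by gene name alone. The choice of this family was made with earlier results of these data known, so it was not independent of the data. Of the 10 genes, 9 had a probe set annotated to that gene alone, among 18193 genes on the array, and Nfkb1 is not analysed here. RNA for the microarrays came from LSK cells (3 arrays: lineage markers low, Sca-1 present, Kit present) and from LK cells (3 arrays: lineage markers low, Sca-1 absent, Kit present), sorted by flow cytometry from wild-type C57BL/6 mice, and the labels name no agent given to them. LSK is a mixed gate that holds stem cells together with multipotent progenitors, and LK holds committed progenitors. The labels give neither the age of the mice, nor the organ, nor whether animals were pooled. The p-values therefore measure the spread between these arrays, part of which may be technical.

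NF-kB is a dimer built from its 5 subunits. In resting cells most of it is held in the cytoplasm by inhibitors of the IkB family, until signals from receptors for tumour necrosis factor, interleukin 1 or microbial products switch on the IkB kinase (IKK), which marks the inhibitors for destruction. The freed dimers then raise the transcription of many genes, their own inhibitors and Tnfaip3 among them, a negative feedback. In blood formation the pathway is known for its part in the survival of progenitors and in their response to infection.

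The 6 arrays had similar median intensities, from 7.88 to 8.49. The upper quartile was lower on the arrays numbered 2 (22.1 in LSK and 20.8 in LK) than on the others (24.3 to 25.8). The sort labels held on the array: 4 of 4 measured LSK marker genes were higher in LSK, and 7 of 8 LK marker genes were lower. Both arrays numbered 2 stood apart from the others on the second principal component, and the control probe sets for 3' and 5' transcript ends, which read RNA integrity and amplification together, differed on average by 2.64 ± 0.56 in LSK and 3.53 ± 0.36 in LK (SD, n = 3 each). All levels below are log2 intensities. A step of 1 is a doubling, and SE and adjusted p are from limma with Benjamini-Hochberg adjustment over all 18193 genes. A mean log2 intensity under 4 is called dim; 10225 genes were dim in both populations, and differences are compressed there. Levels of different genes are not set against each other, because their probes differ.

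One of the 9 genes passed the threshold of 0.05: Nfkbiz, higher in LSK. None was lower, by adjusted or unadjusted p. Over the whole array 6.73% of genes passed in either direction, so that 1 of 9 is a count near the background, and the result concerns Nfkbiz and not the family. The log2 difference lay above 0 for 7 of the 9 genes and for 46.6% of all genes, with medians of 0.30 and -0.02. Of the 7, Nfkb2, Rel and Relb were dim in both populations, with differences of 0.21, 0.21 and 0.30. The LSK arrays lay above the LK arrays without overlap for 3 of the 9 (Relb, Nfkbie and Nfkbiz), and the same held for 13.2% of all genes. None lay below without overlap, and 28% of all genes had no overlap in either direction.

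**Figure D1:**
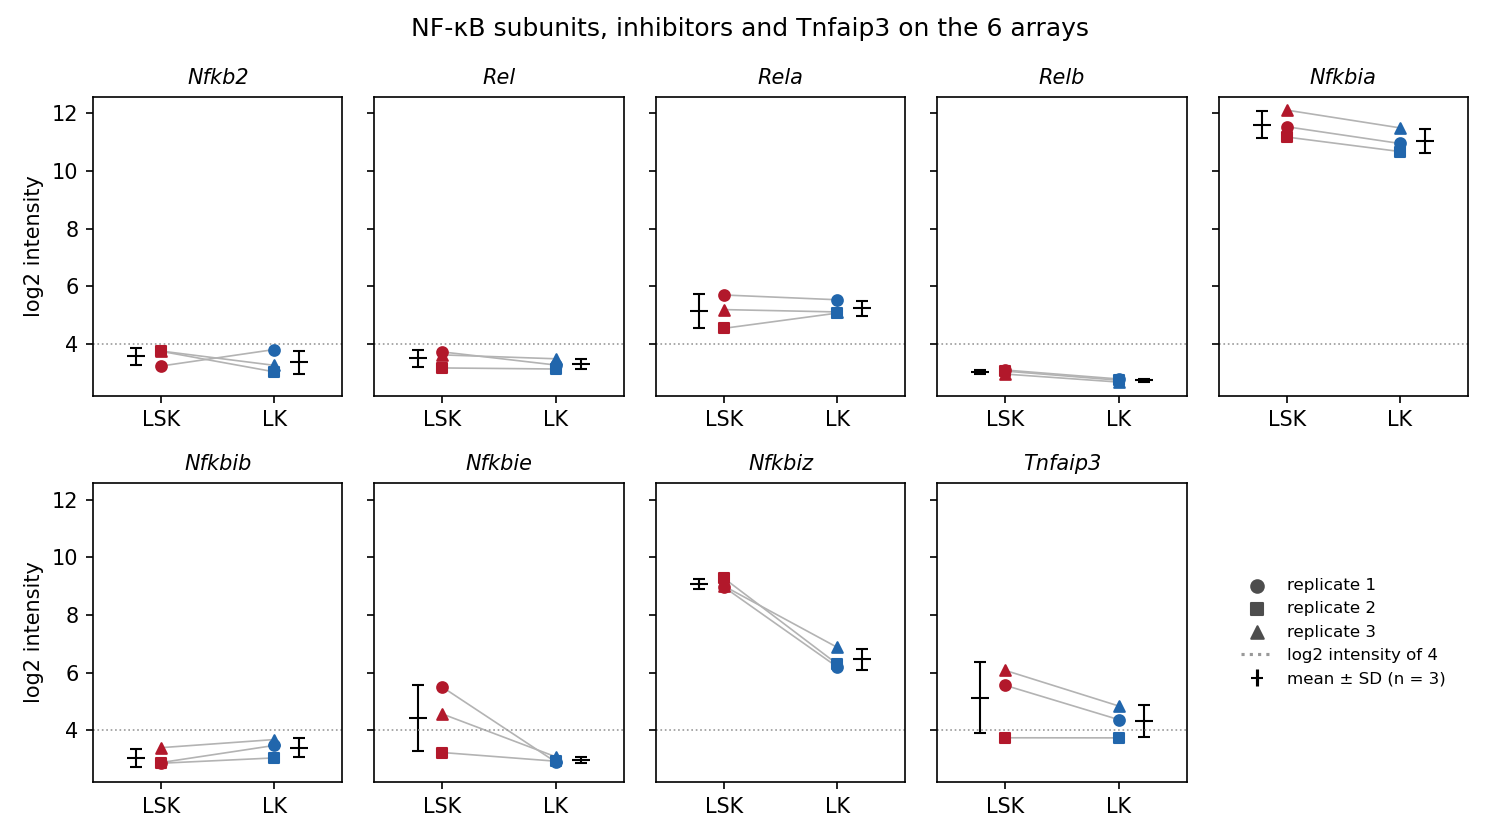
Log2 intensity of the 9 measured genes on each array (vertical axis), LSK left and LK right in each panel; grey lines join arrays with the same replicate number, bars show mean ± SD over 3 arrays, and the dotted line marks a log2 intensity of 4. Nfkbiz separates the populations by a log2 difference of 2.63, Nfkbia lies higher in LSK by a similar step in each pair, and the LSK points of Nfkbie and Tnfaip3 are spread widely.

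Nfkbiz encodes IkB-zeta, an atypical member of the inhibitor family that acts in the nucleus, where it binds NF-kB dimers and is known to help switch on a subset of their target genes. Its log2 intensities were 8.97, 9.27 and 9.0 in LSK replicates 1, 2 and 3, against 6.20, 6.30 and 6.88 in LK replicates 1, 2 and 3. The lowest LSK array thus lay more than 2 log2 units above the highest LK array. The means were 9.08 ± 0.17 in LSK and 6.46 ± 0.37 in LK (SD, n = 3 each), a difference of 2.63 (SE 0.21, 6.18-fold, 95% interval 4.35 to 8.77-fold, adjusted p = 0.00239). On the linear scale the intensity averaged 545 in LSK and 89.8 in LK. The call held in each of the 6 fits without 1 array, with adjusted p up to 0.0171. It did not hold once the 3'-end bias of the arrays entered as a covariate (log2 difference 2.50, adjusted p = 0.101), a fit in which 25 genes in all passed. That bias was higher in LK in 3 of 3 pairs, so the fit cannot fully tell the covariate from the population. The arrays cannot tell a higher level in each cell from a larger share of cells that carry the transcript.

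The other probe sets of Nfkbiz gave the same direction with more spread in LSK. The second read 7.93, 6.51 and 9.0 in LSK and 5.35, 5.36 and 6.19 in LK, replicates 1 to 3 in each case. Its populations did not overlap, but LSK replicate 2 lay well below the other LSK arrays. On the probe set that stands for the gene, LSK replicate 2 was instead the highest, so the order of the LSK arrays was not shared. The difference of 2.18 (SE 0.61) on the second probe set had an adjusted p of 0.118 in limma over all probe sets. The third was dim in both populations (3.35 ± 0.55 in LSK and 2.77 ± 0.16 in LK, SD, n = 3 each; adjusted p = 0.353). Thus 1 of the 3 probe sets passed, where 3.21% of all probe sets did in either direction and 2.03% as higher in LSK. With the 3 probe sets averaged, Nfkbiz had a log2 difference of 1.79 and still passed (adjusted p = 0.0219).

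**Figure D2:**
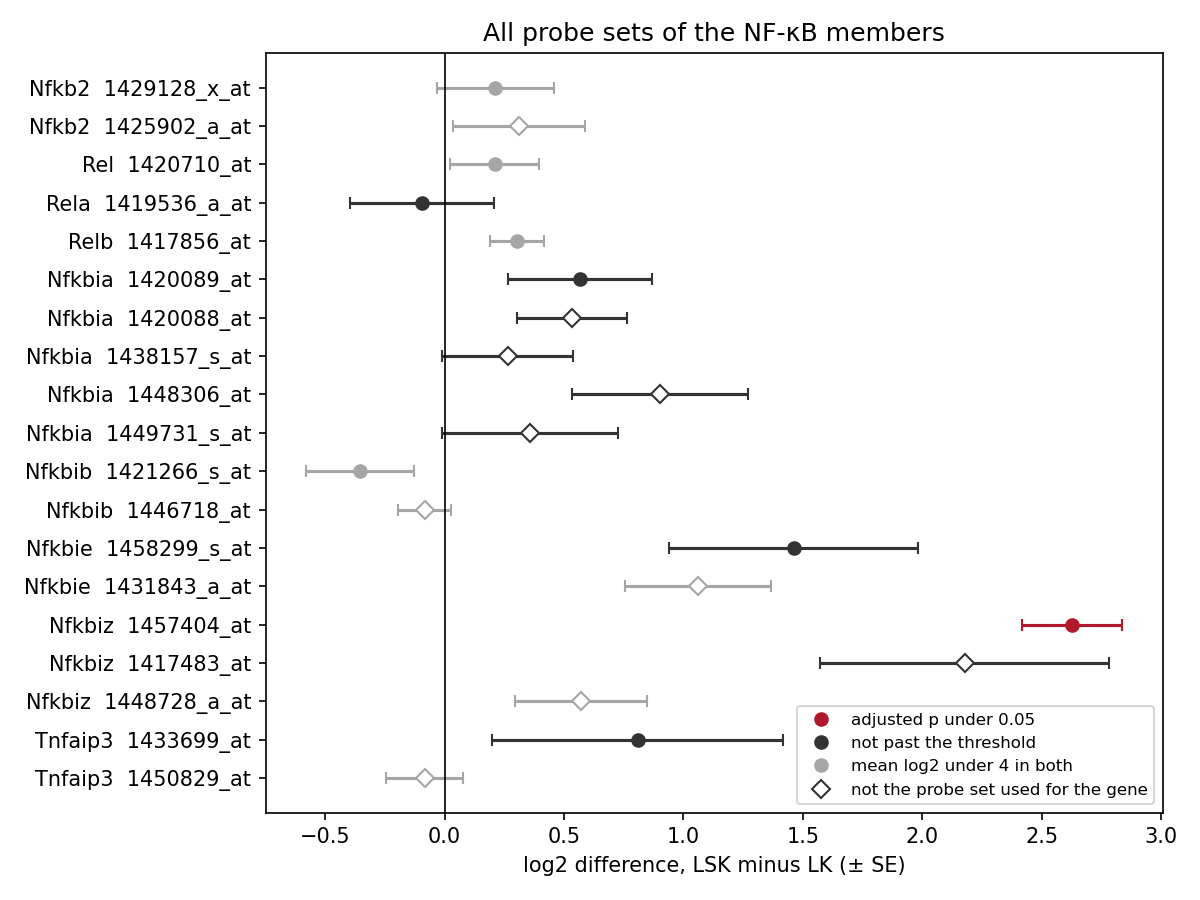
Log2 difference, LSK minus LK, with its SE (horizontal axis) for all 19 probe sets of the 9 genes (rows); filled circles are the probe sets that stand for a gene, open diamonds the others, grey marks those with a mean under 4 in both populations and red marks an adjusted p under 0.05. The 5 Nfkbia probe sets lie between 0.26 and 0.90, both Nfkbie probe sets lie above 1, and 1 Nfkbiz probe set is past the threshold.

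Nfkbia, Nfkbib and Nfkbie encode the classical inhibitors IkB-alpha, IkB-beta and IkB-epsilon, which hold NF-kB dimers in the cytoplasm. Nfkbia was bright in both populations, with log2 intensities of 11.54, 11.18 and 12.11 in LSK and 10.95, 10.68 and 11.50 in LK for replicates 1, 2 and 3. The populations overlapped: LSK replicate 2 lay below LK replicate 3. Between arrays of the same number, however, the step on the probe set that stands for the gene was nearly constant, at 0.58, 0.50 and 0.62. The labels do not say what the number stands for, and the pairing was taken from these data. The mean difference of 0.57 (SE 0.30, 1.48-fold, 95% interval 0.899 to 2.44-fold) did not pass without regard to the number (adjusted p = 0.339) and passed once arrays of equal number were blocked (SE 0.13, adjusted p = 0.0415). With the block, 2 of the 9 genes were higher in LSK and 0 lower, where 7.02% of all genes were higher and 7.36% lower. The other 4 Nfkbia probe sets had differences of 0.53, 0.26, 0.90 and 0.36, none of which passed over all probe sets. LSK lay above LK in 3, 2, 3 and 2 of 3 pairs, in that order. In those with 2 of 3, replicate 2 read 8.52 and 8.69 in LSK and 8.75 and 8.70 in LK. The near-constant step was thus not shared by every Nfkbia probe set.

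Nfkbia was highest on the replicate 3 array of each population and lowest on the replicate 2 array. The summed intensity of 14 immediate early and heat-shock genes, which handling and sorting of cells can induce, had the same order within each population. It was 21771, 17115 and 27208 in LSK and 13726, 10676 and 14845 in LK for replicates 1, 2 and 3. All 3 LSK sums lay above all 3 LK sums, unlike Nfkbia, whose populations overlapped. The summed intensity of 6 mature neutrophil marker genes was also highest on both replicate 3 arrays, at 15107, 13078 and 20183 in LSK and 9942, 11322 and 19050 in LK. In the blocked fit that called Nfkbia, 4 of these 6 markers (Ltf, Ngp, Camp and Lcn2) were higher in LSK too. So were 8 of the 14 immediate early and heat-shock genes, while Hspa1a was lower (difference -1.96). In that fit 7.02% of all genes were higher and 7.36% lower. The 14 genes were chosen with earlier results of these data known. The part of either group in the Nfkbia values was not tested.

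**Figure D3:**
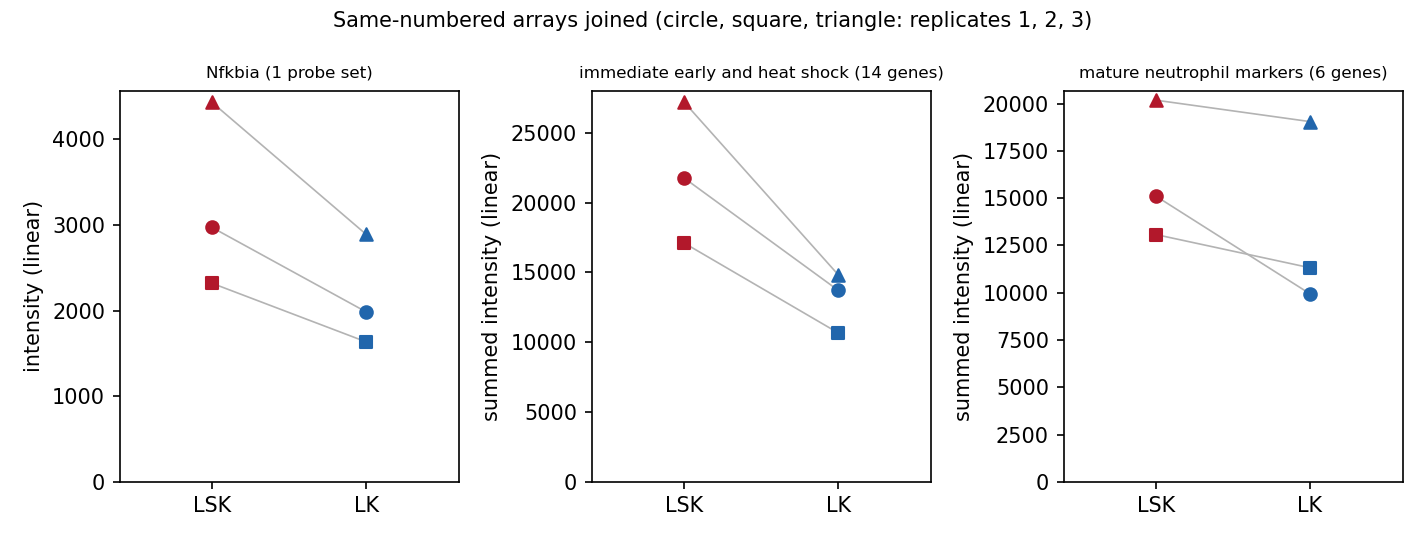
Linear intensity of Nfkbia (left), summed linear intensity of 14 immediate early and heat-shock genes (middle) and of 6 mature neutrophil marker genes (right) on each array, LSK left and LK right in each panel, with arrays of the same number joined by a line. In all 3 panels the replicate 3 array has the highest value of each population, and LSK lies above LK in each pair.

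Among the 8 genes of the family that did not pass, Nfkbie had the largest difference. Its log2 intensities were 5.49, 3.23 and 4.56 in LSK replicates 1, 2 and 3, against 2.90, 2.93 and 3.08 in LK. All LK arrays were dim and close together, whereas the LSK arrays spread over 2 log2 units, with LSK replicate 2 close to the LK level. The difference was 1.46 (SE 0.52, 2.75-fold, 95% interval 1.16 to 6.53-fold, adjusted p = 0.160). Without LSK replicate 2 it was 2.06 and passed (adjusted p = 0.0251). The second Nfkbie probe set read 4.65, 3.63 and 3.70 in LSK and 2.63, 3.23 and 2.94 in LK, again without overlap and with both means in the dim range (difference 1.06, SE 0.31, adjusted p = 0.128 over all probe sets). Since the LK level lay at the dim end, the fold is limited by the range of the array.

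Nfkbib ran the other way, with 2.88, 2.86 and 3.40 in LSK and 3.47, 3.04 and 3.68 in LK. Each LSK array lay below the LK array of its number, but it was dim in both populations and the groups overlapped (difference -0.35, SE 0.23, adjusted p = 0.437). Its second probe set was also dim (difference -0.08).

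Tnfaip3 encodes A20, a ubiquitin-editing enzyme that shuts off signalling between receptors and IKK. It read 5.56, 3.74 and 6.08 in LSK and 4.37, 3.74 and 4.84 in LK. The replicate 2 arrays of both populations were dim and alike, and the other pairs differed by 1.19 and 1.23. The difference of 0.81 (SE 0.61, 1.75-fold, 95% interval 0.638 to 4.81-fold) did not pass (adjusted p = 0.514), and no fit of those tried brought it past the threshold. Without LSK replicate 3 the difference was 0.33, and without LSK replicate 2 it was 1.5 (adjusted p = 0.0878). The second Tnfaip3 probe set was dim in both populations (2.60 ± 0.21 in LSK and 2.68 ± 0.18 in LK, SD, n = 3 each).

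The brakes Nfkbia, Nfkbie and Tnfaip3 are textbook targets of NF-kB, and the bases just before their transcription starts are shown for that reason. The stretches hold 150 bases each, from RefSeq on build GRCm38.p6, 5′ to 3′ on the strand of the gene. Capitals mark each match on either strand to the 10-base NF-kB consensus.

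Nfkbia (chr12:55492648-55492797, - strand): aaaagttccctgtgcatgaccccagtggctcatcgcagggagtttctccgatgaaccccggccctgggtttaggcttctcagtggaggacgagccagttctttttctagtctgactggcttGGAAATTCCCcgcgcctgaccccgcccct
Nfkbie (chr17:45555550-45555699, + strand): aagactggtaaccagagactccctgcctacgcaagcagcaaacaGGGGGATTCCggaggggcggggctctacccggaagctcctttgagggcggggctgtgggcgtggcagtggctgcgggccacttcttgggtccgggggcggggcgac
Tnfaip3 (chr10:19015411-19015560, - strand): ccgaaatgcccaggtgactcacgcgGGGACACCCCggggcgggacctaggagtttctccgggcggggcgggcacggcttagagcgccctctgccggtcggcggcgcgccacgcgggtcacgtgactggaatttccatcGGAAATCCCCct

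The Nfkbia match begins 29 bases before the start and reads GGGAATTTCC on the opposite strand. The Nfkbie match begins 106 bases before the start and reads GGGGGATTCC. Tnfaip3 has 2 start sites in the table. The one shown has a match that begins 125 bases before the start, GGGACACCCC, and another that begins 12 bases before it and reads GGGGATTTCC on the opposite strand. Among 10 start sites of 7 measured genes in the RefSeq table, each given as 250 bases before and 50 after the start, 7 start sites of 5 genes (Nfkb2, Rel, Nfkbia, Nfkbie and Tnfaip3) held a match. The consensus occurred in 4.51% of all 32851 start sites of that length. In Rel the matches overlap and begin 92 bases before the start (GGGAAATCCC) and 1 base nearer to it on the opposite strand (GGGGATTTCC), and 2 of the 3 Nfkb2 windows share a match because they overlap. Rela, Nfkbib and the other start site of Tnfaip3 had no match in their windows. The table held no entry for Nfkb1, Relb and Nfkbiz. A match describes the letters in the window and is neither a binding site nor a cause.

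None of the 4 measured subunit genes passed in limma, and 1 of them, Relb, had an unadjusted p under 0.05. Rela, which encodes p65, the main activating subunit, read 5.70, 4.54 and 5.19 in LSK and 5.53, 5.07 and 5.11 in LK. The populations overlapped, and the lowest value was LSK replicate 2. The difference was -0.09 (SE 0.30, 95% interval 0.567 to 1.55-fold, adjusted p = 0.899), and its sign turned in 5 of 16 other fits, that without LSK replicate 2 among them (0.21). The interval still includes 1.55-fold higher and 0.567-fold levels, so the data do not show that the levels are equal.

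Rel, which encodes c-Rel, a subunit best known from lymphocytes, read 3.72, 3.17 and 3.62 in LSK and 3.27, 3.13 and 3.49 in LK (difference 0.21, SE 0.19, adjusted p = 0.594). Nfkb2, the gene of the precursor p100 and its product p52, read 3.24, 3.75 and 3.75 in LSK and 3.81, 3.03 and 3.26 in LK (difference 0.21, SE 0.25, adjusted p = 0.685). Both genes were dim on every array, and their populations overlapped.

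Relb, the partner of p52 in the non-canonical branch, was dim too, with 3.10, 3.06 and 2.96 in LSK and 2.79, 2.74 and 2.68 in LK. The populations did not overlap, and the step between arrays of the same number was 0.31, 0.32 and 0.28. The difference of 0.30 (SE 0.12, 95% interval 0.02 to 0.59 on the log2 scale) had an unadjusted p of 0.0403 and an adjusted p of 0.198. An unadjusted p under 0.05 was reached by 22.4% of all genes. Nfkb2, Rel, Relb and Nfkbib make up the 4 of 9 genes that were dim in both populations.

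The pathway around these genes was read from 5 lists that hold 71 measured genes of 78. The lists were chosen with earlier results of these data known, so their counts do not measure an excess over all genes. Of the 71, 6 were higher in LSK, 0 were lower and 65 did not pass, and 3.84% of all genes passed as higher and 2.89% as lower. In the blocked fit 13 of the 71 were higher and 2 lower (Nuak2 and Vcam1), against 7.02% and 7.36% of all genes in that fit. Of the 71, 27 were dim in both populations, against 10225 of all 18193 genes, so these shares are not matched for level. The 6 genes were 2 receptors and 4 target genes. The median log2 difference was 0.15 for the receptors, -0.08 for the adaptors and ubiquitin ligases, -0.05 for the IKK kinases, 0.15 for the other IkB proteins and brakes and 0.25 for the target genes.

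**Figure D4:**
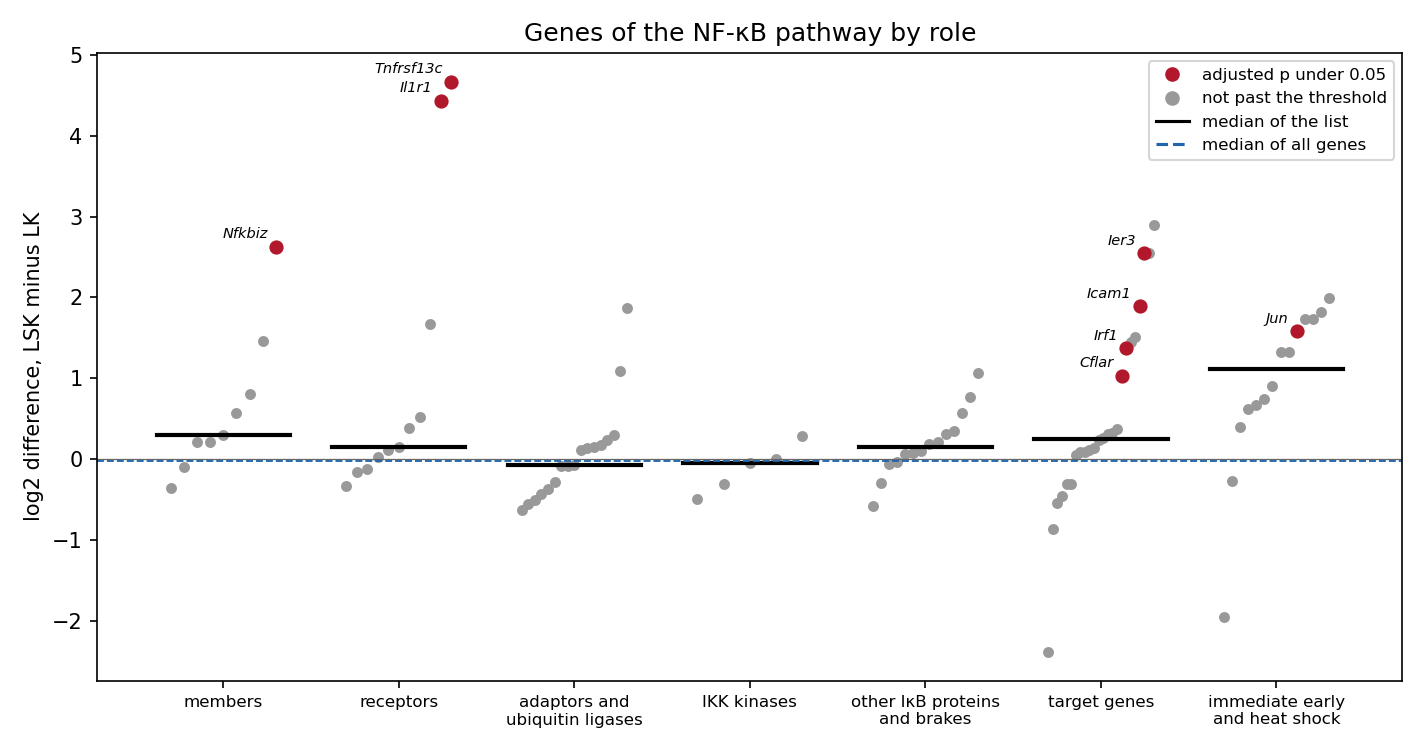
Log2 difference, LSK minus LK (vertical axis), of each measured gene in the 9 members, the 5 pathway lists and the immediate early and heat-shock list (columns); red points have an adjusted p under 0.05, black bars are the list medians and the dashed line is the median of all genes. The named red points lie above 1, and no gene is past the threshold below 0.

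Among 11 receptors, Il1r1 and Tnfrsf13c were higher in LSK and 9 did not pass. Il18r1, the receptor chain that binds interleukin 18, averaged 4.91 ± 0.72 in LSK and 3.25 ± 0.41 in LK (SD, n = 3 each; difference 1.67, adjusted p = 0.0528) and passed in 7 of 15 other fits, the blocked one among them (0.0460). Il1r1, the signalling receptor for interleukin 1, a cytokine that activates NF-kB, read 7.95, 8.34 and 8.17 in LSK and 4.08, 3.25 and 3.83 in LK. The difference was 4.43 (SE 0.24, 21.6-fold, adjusted p = 0.000685). The LK mean was dim, so the fold is limited by the range, and the second Il1r1 probe set was dim in both populations (difference -0.22, adjusted p = 0.537 over all probe sets). Il1r1 passed in all 16 other fits.

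Tnfrsf13c encodes the receptor of the B-cell survival factor BAFF, which signals through the non-canonical branch. It read 8.82, 7.49 and 8.19 in LSK and 3.77, 3.58 and 3.13 in LK (difference 4.67, SE 0.35, 25.5-fold, adjusted p = 0.00189). The LK mean was dim here too, so the fold is limited by the range. With the 3'-end covariate the difference was 4.70 with a larger SE of 0.58, and the call was lost (adjusted p = 0.0754). Of 5 measured B-cell markers 0 passed limma (0 at an unadjusted p under 0.05), and Cd79a, Ms4a1 and Pax5 were dim in both populations. Cd79b averaged 4.19 ± 0.40 in LSK and 4.20 ± 0.33 in LK. Ebf1 averaged 4.19 ± 1.37 in LSK and 2.98 ± 0.38 in LK (SD, n = 3 each; difference 1.21, adjusted p = 0.340), with 5.76 on LSK replicate 2, and LSK lay above LK in 3 of 3 pairs. The summed intensity of the 5 was 46.6 to 88.2 in LSK and 43.8 to 54.4 in LK.

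No gene on the lists between receptor and NF-kB passed in limma. At an unadjusted p under 0.05 there were 2 higher and 2 lower among the adaptors and ubiquitin ligases, 0 among the IKK kinases, and 3 higher among the other IkB proteins and brakes. Over all 18193 genes, 1910 were higher and 2174 lower at that level, 22.4% in either direction. Of 17 measured adaptors and ubiquitin ligases the lowest p belonged to Bcl10, an adaptor of antigen receptor signalling (8.48 ± 0.42 in LSK and 7.39 ± 0.48 in LK, SD, n = 3 each; adjusted p = 0.0856 without the block, 0.0316 with it). Of 5 measured IKK kinases and relatives it belonged to Map3k14, the kinase of the non-canonical branch, which was dim in both populations (3.09 ± 0.20 in LSK and 2.81 ± 0.12 in LK, SD, n = 3 each; adjusted p = 0.351). The catalytic subunit gene Ikbkb was bright and had a difference of -0.05. Of 14 other IkB proteins and brakes the lowest p belonged to Otud7b, a deubiquitinase (8.32 ± 0.22 in LSK and 7.55 ± 0.26 in LK, SD, n = 3 each; adjusted p = 0.0628 without the block, 0.0215 with it). Another Otud7b probe set, dim in both populations, lay the opposite way without overlap (difference -0.44, unadjusted p = 0.0438), and with the probe sets averaged the difference was 0.30 (adjusted p = 0.516). With the block, Bcl10 and Malt1 among the adaptors and Otud7b and Rnf11 among the brakes were higher in LSK.

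Of 24 target genes, 4 were higher in LSK, 0 lower and 20 did not pass, and 11 of the 24 were dim in both populations. At an unadjusted p under 0.05, 7 were higher and 2 lower, and 22.4% of all genes reached that level in either direction. Ier3, an early response gene with a role in survival, read 9.49, 7.79 and 9.01 in LSK and 6.53, 5.59 and 6.54 in LK (difference 2.54, SE 0.47, 5.83-fold, adjusted p = 0.0297). Icam1, an adhesion molecule, read 6.68, 5.36 and 6.51 in LSK and 4.45, 4.14 and 4.28 in LK (difference 1.89, SE 0.35, 3.70-fold, adjusted p = 0.0286). In both genes LSK replicate 2 was the lowest of the LSK arrays, as for 6 of the 9 measured genes of the family, yet lay above all LK arrays.

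The other 2 were Irf1, an interferon regulatory factor (means 7.42 ± 0.40 in LSK, 6.05 ± 0.36 in LK, 2.58-fold, adjusted p = 0.0329), and Cflar, an inhibitor of caspase-8 activation (means 8.82 ± 0.26 in LSK, 7.79 ± 0.19 in LK, 2.04-fold, adjusted p = 0.0257; SD, n = 3 each). Another Cflar probe set lay the opposite way (difference -0.73, unadjusted p = 0.0233), and with the probe sets averaged Cflar did not pass (adjusted p = 0.176). The 4 calls were sensitive to single arrays. Without LSK replicate 1, LK replicate 1, LK replicate 2 or LK replicate 3 none of the target genes was higher, without LSK replicate 3 only Cflar was, and without LSK replicate 2 there were 4, with Ccl4 in place of Cflar. None of the 4 passed with the 3'-end covariate, where the differences were 2.40 for Ier3, 2.1 for Icam1, 1.40 for Irf1 and 0.80 for Cflar. The cytokine genes Tnf, Il6 and Il1b were dim in both populations. The chemokine gene Cxcl2 was not dim, at 7.74 ± 1.48 in LSK and 6.22 ± 0.81 in LK (SD, n = 3 each; difference 1.51, adjusted p = 0.310). The chemokine genes Ccl3 and Ccl4 had differences of 2.90 and 2.55 that did not pass (adjusted p = 0.0840 and 0.0978) and did with the block (0.00167 and 0.0386). Vcam1 and Nuak2 ran the other way, with differences of -2.39 and -0.86. They did not pass either (adjusted p = 0.222 and 0.114) and did with the block (0.0363 and 0.0231).

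**Figure D5:**
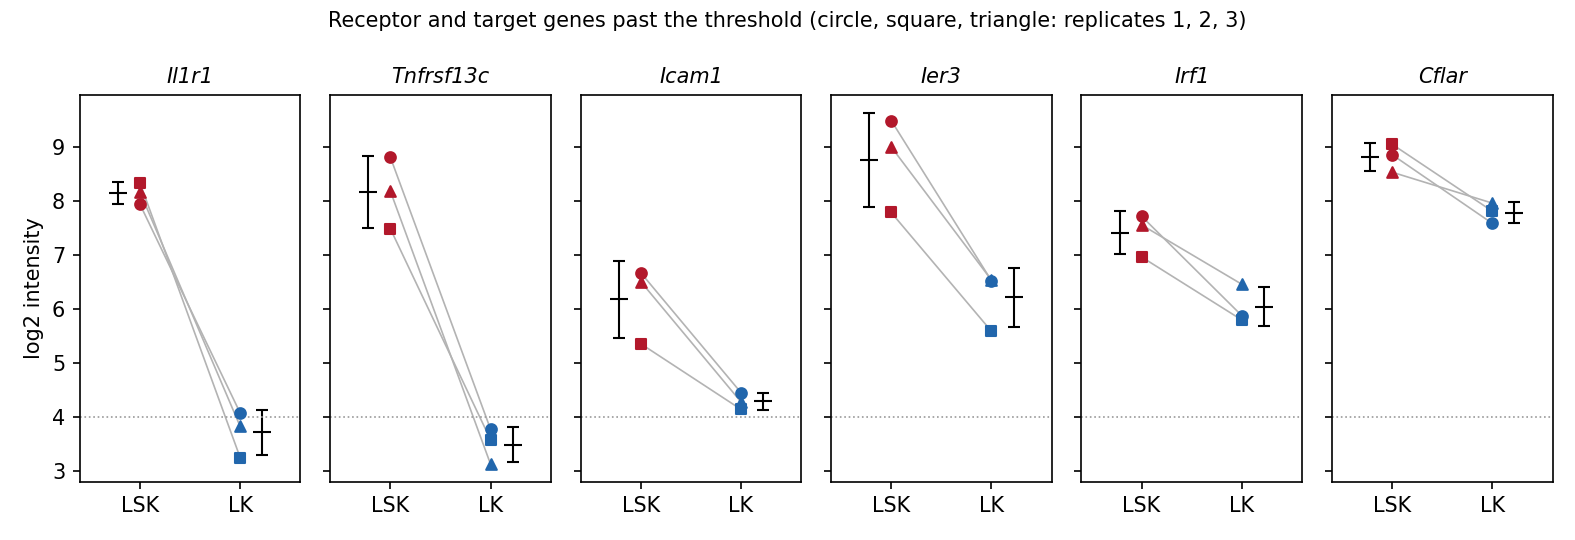
Log2 intensity (vertical axis) of the 2 receptor and 4 target genes past the threshold on each array, LSK left and LK right in each panel; grey lines join arrays with the same number, bars show mean ± SD over 3 arrays, and the dotted line marks a log2 intensity of 4. All LSK points lie above all LK points in each panel, with the LK points of Il1r1 and Tnfrsf13c near or under 4.

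Markers of other cell types were read on the same arrays. All 7 macrophage markers were dim in both populations, with summed intensities of 54.3 to 68.0 in LSK and 53.2 to 56.3 in LK, although C1qb passed as higher in LSK within the dim range (3.84 ± 0.21 in LSK and 2.34 ± 0.31 in LK, SD, n = 3 each). All 5 T-cell and NK-cell and all 4 dendritic cell markers were dim in both as well. Of 6 endothelial and stromal markers only Emcn passed, at 4.03 ± 0.42 in LSK and 2.26 ± 0.24 in LK (SD, n = 3 each). The 6 mature neutrophil markers were well above the dim level in both populations and 0 passed limma (0 at an unadjusted p under 0.05), whereas 4 passed as higher in the blocked fit. Among 14 immediate early and heat-shock genes Jun was higher in LSK (2.99-fold, adjusted p = 0.0471) and 13 did not pass, with a median difference of 1.11. The Jun call was lost in all 6 fits without 1 array, with differences from 1.23 to 1.84. In the blocked fit, 8 of the 14 were higher and Hspa1a was lower, against 7.02% and 7.36% of all genes. This list too was chosen with earlier results known, and only 1 of its 14 genes was dim in both populations. The part of these genes in the levels of Nfkbiz, Nfkbia, Ier3 and Icam1 was not tested.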

How the data were processed

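The authors deposited 1 linear-scale intensity for each probe set and array. The submitters' processing notes name RMA, affy and R 2.11.0. RMA subtracts background and normally sets the arrays to a common distribution, which hides any shift common to the genes. The deposited arrays were not on a fully common distribution, with upper quartiles from 20.8 in LK replicate 2 to 25.8 in LSK replicate 3. The RNA had been amplified linearly, per the labels' protocols. Of 45037 probe sets other than controls, 34945 had a single gene symbol in GEO's platform table, 932 several, and 9160 were not listed. Symbols were updated through gene identifiers in a RefSeq table of GRCm38.p6, which matched 34741. Intensities were put on the log2 scale, and the probe set of highest mean stood for each of 18193 genes. LSK was compared with LK in limma 3.58.1 under R 4.3.3 (lmFit and eBayes, two-sided, adjusted over all genes, threshold 0.05). The code was tested on simulated data. Members and lists were chosen with earlier results of these data known. Genes of each list were named by the largest differences past the threshold or the lowest p. Genes named outside that rule (Irf1, Cflar, Malt1, Rnf11, Ccl3, Ccl4, Nuak2, Vcam1, Ikbkb, Tnf, Il6, Il1b, Cxcl2, Il18r1 and Hspa1a) were added after their values were seen. Deviations from the population means correlated at 0.42, 0.43 and 0.27 between arrays of the same number and at most 0.04 between others. Such deviations cancel out within a population, so positive values for some pairs push the others down. The value for the others is therefore no independent baseline. The labels do not say what the number stands for. The numbers were taken to pair the arrays, a pairing that comes from the data. No arrays held identical values. With 3 arrays a population, their number limits the precision. The alternatives were other normalizations, probe set choices, filters and variance models, array weights, the block and leaving out arrays.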

Additional observations from a re-analysis of the deposited data

How the results depend on the processing

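The call of Nfkbiz held in 15 of 16 alternatives (log2 differences from 1.79 to 2.84), all except the 3' to 5' covariate (2.50). The number of the 9 genes higher in LSK was 1, and 2 with the replicate block (Nfkbia, 0.57), with array weights (Nfkbie, 1.70) and without LSK replicate 2 (Nfkbie), so that fits without 1 array gave 1 to 2. It was 0 with the covariate, and none of the 9 was lower in any of these fits. Nfkbie ranged from 0.93 to 2.06 without 1 array and Nfkbia from 0.32 to 0.79. Nfkb2 changed sign without both arrays numbered 2 (-0.038). Rela changed sign with cyclic loess (0.010), array weights (0.13), when LSK replicate 2 (0.21), LK replicate 1 (0.05) or both arrays numbered 2 (0.12) were left out; without 1 array it ranged from -0.37 to 0.21. Apart from Nfkbia, the pathway, immediate early and heat-shock genes given with the block in the report, 4 neutrophil markers and Epor among the LK markers (now lower), the block changed no call of a gene on the lists. Of the 71 pathway genes, 13 were higher and 2 lower with the block, 12 and 2 with array weights, 10 higher with renewed quantile normalization, with cyclic loess and with genes above a mean log2 of 5, 2 with the covariate, and 2 to 6 higher and 0 to 1 lower without 1 array. Over the array, 1225 genes differed (699 higher, 526 lower): 2617 with the block (1278 and 1339), 2606 with array weights (1305 and 1301), 839 lower with renewed quantile normalization, 537 without both arrays numbered 2 (371 and 166), 25 with the covariate (25 and 0), and 306 to 1269 without 1 array (230 to 584 and 76 to 685). The share of calls that were higher was 57.1%, 46.4% among genes above a mean log2 of 5 (whose median difference was -0.11, against -0.02 over all), 100% with the covariate, 69.1% without both arrays numbered 2 and 46% to 75.5% without 1 array. The arrays numbered 2 and the covariate were chosen after seeing the data. The covariate was higher in LK in 3 of 3 pairs, so it partly tracks the population. The cause of these shifts was not tested. Genes dim in 1 or both populations are limited by signal over background.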
